A study of Mus musculus with 40 samples.

Results

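Matrix metalloproteases, the related aggrecanase Adamts4 and the tissue inhibitors of metalloproteases were followed in mouse macrophages exposed to lipopolysaccharide (LPS). The set is a fixed list of 10 genes (Mmp8, Mmp9, Mmp12, Mmp13, Mmp14, Mmp19, Timp1, Timp2, Timp3 and Adamts4) out of 57010 in the count table, and each symbol matched 1 gene identifier. Its members were chosen by measured values of these libraries: Mmp9 and Mmp12 had been seen to be higher in the knock-out cells. Differences between the genotypes in these 10 genes are therefore described below and not tested, whereas their responses to LPS were tested.

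RNA was measured by 3′ tag sequencing (QuantSeq FWD) in primary macrophages grown from mouse bone marrow in L929-conditioned medium. The cells of both genotypes carried the floxed Otulin allele. WT denotes OtulinFL/FL cells without Cre, and KO denotes OtulinFL/FL LysMCreTg/WT cells, in which the myeloid LysM promoter drives Cre recombinase to delete Otulin, a deubiquitinase for linear ubiquitin chains. Each genotype was sampled without LPS (0 h) and after 3, 6, 12 and 24 h with 500 ng/ml of ultrapure LPS from Salmonella minnesota, with 4 biological replicates in each of the 10 groups. No Cre-only group was among the 40 libraries, so loss of Otulin and presence of Cre cannot be told apart. The labels give neither the age of the mice nor the deleted part of Otulin. Mean Otulin levels in CPM (tag counts scaled to a common library size) at 0, 3, 6, 12 and 24 h were 41.1, 43.1, 37.5, 32.9 and 32.2 in WT and 35.9, 32.5, 31.1, 32.9 and 48.5 in KO. The KO libraries lay below the WT libraries without overlap at 3 and 6 h, overlapped them at 0 and 12 h, and lay above them at 24 h (45.2 to 51.7 against 27.6 to 37.1 CPM), so the 24 h level goes against the label. A 3′ tag outside the deleted part would not check the genotype.

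The 40 libraries held 3615155 to 6829303 counts each (median 4471933). The 7 macrophage markers (among them Adgre1, Csf1r and Cd68) were detected in every group and summed to 2120 to 4339 CPM in a library. Lymphoid markers summed to at most 1.34 CPM and stromal markers to at most 9.23 CPM. All libraries of KO replicate 3 and WT replicate 4 lacked Xist above 10 CPM and were taken as male, and the other replicates as female.

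Matrix metalloproteases are zinc-dependent endopeptidases that are made as inactive precursors and, once activated, cut collagens, elastin, basement membrane proteins, cytokines and other proteases. TIMP proteins bind the active site and block it. In macrophages the enzymes serve migration through tissue and the remodelling and breakdown of matrix during inflammation, and much of their regulation is at the level of transcription. RNA tags report neither secretion, nor activation, nor inhibition of the enzymes.

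Proximal promoters of the members are shown first because neighbours with unlike responses to LPS (Mmp13, Mmp12 and Mmp8) can then be compared, followed by Mmp14 and Timp1, which responded strongly, and Timp2, which fell late. RefSeq (GRCm38.p6) gave 8 promoter windows for 7 of the 10 members. Each line holds the last 150 bases before an annotated transcript start, 5′ to 3′ on the gene's strand. Capitals mark matches to an AP-1 motif (TGAGTCA or its reverse complement), a TATA box (TATAAA on the gene's strand) or the NF-kB motif.
Mmp13: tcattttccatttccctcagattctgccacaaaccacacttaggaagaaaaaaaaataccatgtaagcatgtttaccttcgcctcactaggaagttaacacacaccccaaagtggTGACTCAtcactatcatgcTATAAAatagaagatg
Mmp12 (upstream start): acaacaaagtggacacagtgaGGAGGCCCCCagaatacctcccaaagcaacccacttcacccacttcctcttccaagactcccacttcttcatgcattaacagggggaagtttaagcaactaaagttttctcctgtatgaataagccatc
Mmp12 (downstream start): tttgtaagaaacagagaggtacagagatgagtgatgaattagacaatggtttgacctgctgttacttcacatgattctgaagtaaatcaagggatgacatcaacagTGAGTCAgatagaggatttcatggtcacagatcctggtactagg
Mmp8: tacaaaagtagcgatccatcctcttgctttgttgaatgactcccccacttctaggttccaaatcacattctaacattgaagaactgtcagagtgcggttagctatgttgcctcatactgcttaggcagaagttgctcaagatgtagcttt
Mmp14: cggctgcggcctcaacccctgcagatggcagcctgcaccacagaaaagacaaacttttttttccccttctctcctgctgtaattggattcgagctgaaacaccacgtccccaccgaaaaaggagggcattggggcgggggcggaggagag
Timp1: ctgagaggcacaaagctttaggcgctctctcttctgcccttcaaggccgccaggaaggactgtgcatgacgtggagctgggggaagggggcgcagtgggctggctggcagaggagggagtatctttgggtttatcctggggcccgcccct
Timp2: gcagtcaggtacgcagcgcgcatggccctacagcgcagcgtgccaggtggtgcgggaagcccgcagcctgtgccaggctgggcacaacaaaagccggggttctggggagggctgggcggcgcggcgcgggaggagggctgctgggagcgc

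These windows lie at chr9:7272364-7272513 (Mmp13, + strand), chr9:7344247-7344396 and chr9:7347224-7347373 (Mmp12, + strand), chr9:7558279-7558428 (Mmp8, + strand), chr14:54431448-54431597 (Mmp14, + strand), chrX:20870016-20870165 (Timp1, + strand) and chr11:118355412-118355561 (Timp2, − strand). The Mmp13 window held an AP-1 match that begins 35 bases before the start and a TATA box that begins 16 bases before it. Of the Mmp12 windows, the upstream one held an NF-kB match beginning 129 bases before the start, and the downstream one an AP-1 match beginning 44 bases before it. AP-1, NF-kB, a TATA box and the cyclic AMP response element (TGACGTCA) were searched in the 250 bases before the start, TATA on the gene's strand and the others on both strands. None of the 4 was matched in the windows of Mmp8, Mmp14, Timp1, Timp2 and Timp3. Among 32851 RefSeq promoters, 4.46% held the AP-1 motif, 7.59% the TATA box, 7.25% the NF-kB motif and 1.55% the cyclic AMP response element. A match describes letters in a window and does not show that a factor binds. The GC content of the 250 bases was 39.6% to 44.8% in the Mmp13, Mmp12 and Mmp8 windows, 54.4% for Timp1, 55.2% for Mmp14, 65.6% for Timp3 and 68.0% for Timp2, against a median of 52.4% over all promoters. The promoters of Mmp9, Mmp19 and Adamts4 were not analysed here.

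**Figure D1:**
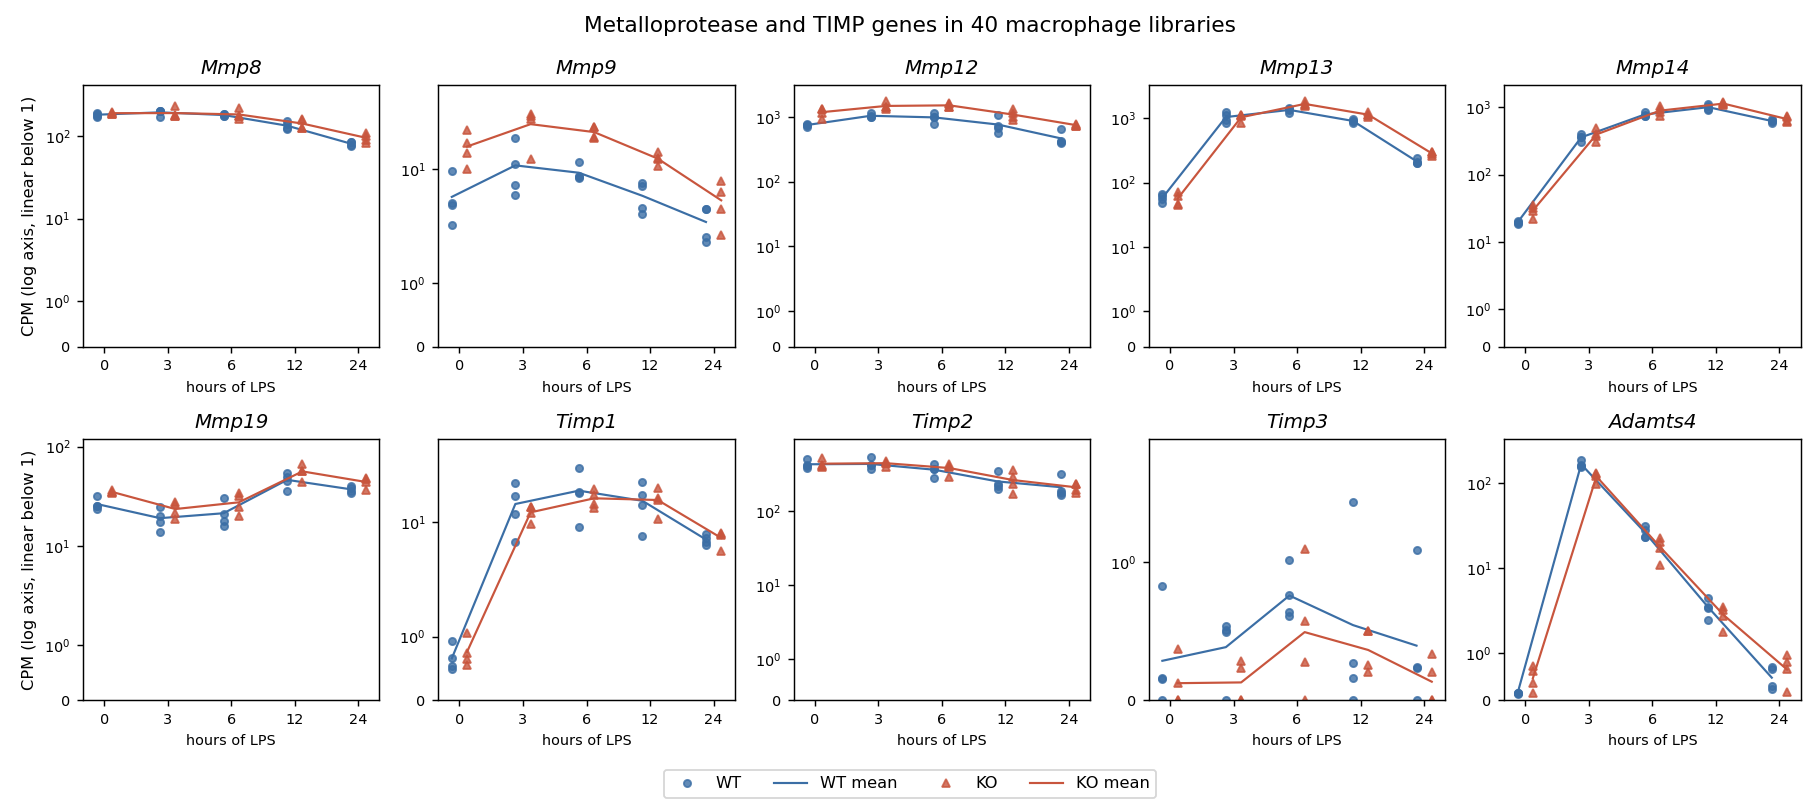
CPM of each of the 10 genes (vertical axis, logarithmic above 1 and linear below) in every library against hours of LPS; circles are WT, triangles KO, and lines join the group means of 4 libraries. Mmp13, Mmp14, Timp1 and Adamts4 rise steeply by 3 h in both genotypes, Mmp8 and Timp2 decline late, and KO lies above WT for Mmp9 and Mmp12.

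After 3 h of LPS, Mmp13, Mmp14, Timp1 and Adamts4 were more than 10-fold above 0 h in both genotypes. They are named for size among the 9 members that passed the filter on low counts. The share of all genes beyond 10-fold was not counted. The macrophage elastase gene Mmp12 and the gelatinase gene Mmp9 moved by less than 1 log2 unit at that time. Timp3 was too low for the test. In bulk RNA, a change in the share of cells that carry a transcript and a change in its level per cell cannot be told apart. In WT at 3 h, 6 of the 9 tested members were higher and 1 was lower, where 26.6% of all 12151 genes tested were higher and 28.0% lower, 54.6% together (edgeR, adjusted p under 0.05). Corresponding counts for KO were 6 and 1, against 22.9% and 25.7% of 12037 genes (48.6% together). The median change of the 9 members at 3 h was 0.88 log2 in WT and 0.68 in KO, beside −0.05 and −0.04 over all genes. The groups being compared with 0 h all share the same 4 libraries of that genotype.

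Later times gave similar counts. At 6 h, 4 of 9 members were higher and 0 lower in WT (31.0% and 37.1% of all genes, 68.1% together), with 5 and 1 in KO (28.7% and 36%, 64.7% together). For that WT count of 0, edgeR gave 0 lower members at an unadjusted p under 0.05 and DESeq2 called 0. Leaving out WT replicate 4 raised the total of calls in WT at 6 h from 4 to 8. Mmp19 (−0.45 log2, adjusted p = 0.00899) and Timp2 (−0.26, adjusted p = 0.0207) were then called lower. With the replicate number as a block both were called lower as well (adjusted p = 0.0164 and 0.00508). Without the filter on low counts Mmp19 was called lower (adjusted p = 0.0197). The WT count of 0 lower members thus depends on the setting. At 12 h, 5 were higher and 2 lower in each genotype, where 32.3% and 35.9% of genes were called in WT (68.2% together) and 30.7% and 34.0% in KO (64.8% together). At 24 h, 4 were higher and 3 lower in WT (34.5% and 35.4%, 69.9% together), with 3 and 4 in KO (32.8% and 33.0%, 65.8% together). Since LPS changed over 6 in 10 genes at these times, the members' counts lie near the background and the members' sizes of change carry the description.

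**Figure D2:**
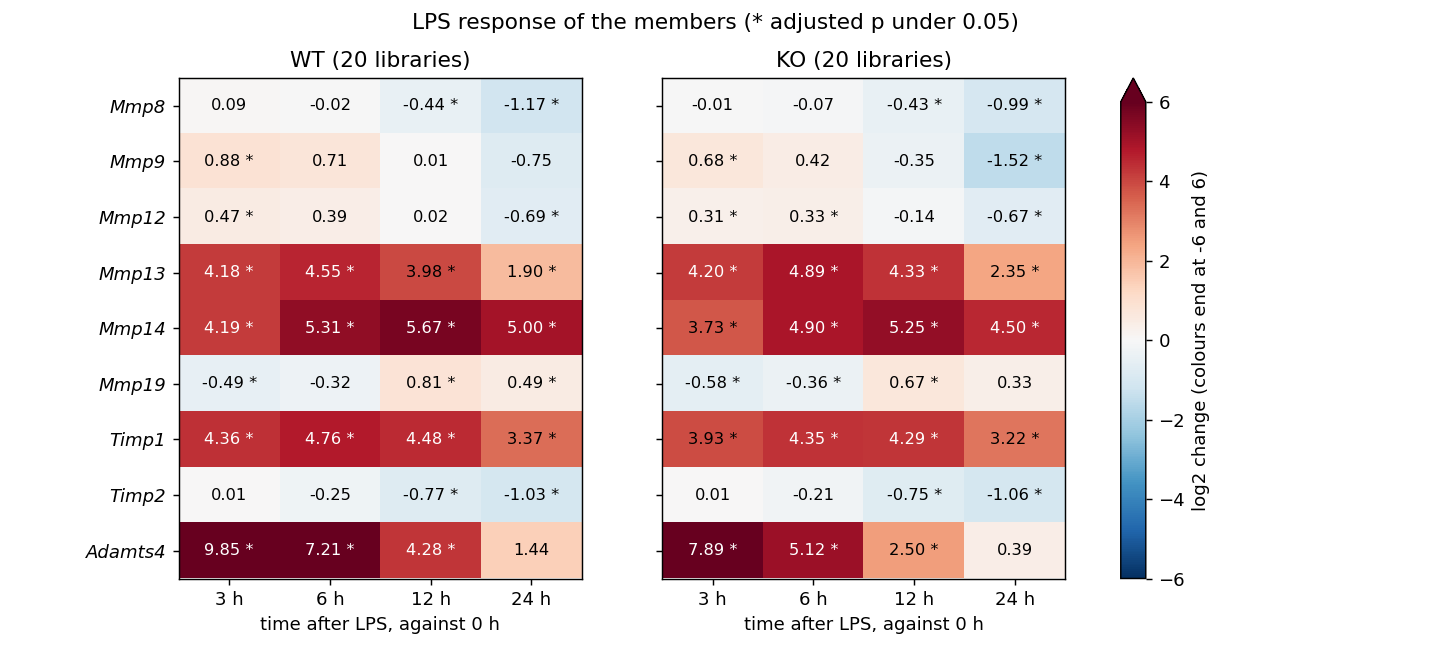
Log2 change of 9 members against 0 h (rows) at 3, 6, 12 and 24 h of LPS (columns), in WT at left and KO at right; numbers are the edgeR log2 changes, and an asterisk marks an adjusted p under 0.05. Adamts4 reaches 9.85 in WT at 3 h and is back at 1.44 by 24 h, whereas Mmp14 stays at 4.19 to 5.67 in WT at all 4 times.

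Mmp13 (ENSMUSG00000050578) encodes a collagenase that cuts fibrillar collagen. In WT it lay at 47.8, 54.8, 61.7 and 66.7 CPM at 0 h and at 939, 843, 1136 and 1278 CPM at 3 h. Its WT peak came at 6 h with 1208, 1329, 1464 and 1423 CPM. Every LPS library up to 24 h lay above every 0 h library of its genotype. The changes in WT were 4.18 ± 0.12, 4.55 ± 0.13, 3.98 ± 0.12 and 1.90 ± 0.12 log2 (SE) at 3, 6, 12 and 24 h, with adjusted p from 2.04e-20 to 4.08e-13. KO cells reached 1585, 1705, 1588 and 1844 CPM at 6 h, which was 4.89 ± 0.13 log2 above 0 h. Between 12 and 24 h Mmp13 fell by 2.08 ± 0.11 log2 in WT (adjusted p = 1e-12) and by 1.98 ± 0.12 in KO (adjusted p = 9.81e-12). By 24 h it was thus back to 215 ± 20.7 CPM in WT and 286 ± 18.9 CPM in KO (SD, n = 4), still above 0 h.

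Mmp14 (ENSMUSG00000000957) encodes a membrane-anchored protease that cuts collagen at the cell surface and activates the precursor of MMP2. It began low in WT, with 19.2, 20.1, 20.8 and 18.3 CPM at 0 h, and was at 361, 302, 404 and 366 CPM at 3 h. Unlike Mmp13 it went on rising to 1111, 1052, 956 and 903 CPM at 12 h. The rise from 3 to 6 h was 1.13 ± 0.08 log2 in WT (adjusted p = 2.84e-11) and 1.17 ± 0.13 in KO (adjusted p = 8.18e-08). From 6 to 12 h it was 0.36 ± 0.08 (adjusted p = 0.000565) and 0.35 ± 0.13 (adjusted p = 0.0277); the KO step missed the threshold without KO replicate 1 (adjusted p = 0.217) or 3 (0.0745). At 24 h Mmp14 had fallen by 0.68 ± 0.08 log2 from 12 h in WT, but it remained 5.00 ± 0.10 log2 above 0 h (adjusted p = 5.28e-23). In KO the 24 h level was 4.50 ± 0.15 log2 above 0 h.

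Adamts4 (ENSMUSG00000006403) encodes an aggrecanase that cuts the proteoglycans aggrecan and versican. Its tags appeared as a short burst. Each WT library held 1 count at 0 h, and at 3 h the libraries stood at 157, 163, 162 and 186 CPM. Over the 4 libraries there were 3008 counts at 3 h and 4 at 0 h, a ratio of 1077 with an exact 95% binomial interval of 420.2 to 3955 that covers counting error only. In KO the counts were 2421 and 12, a ratio of 252 with an interval of 144 to 488.

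Adamts4 then fell in every step. WT libraries were at 31.7, 23.2, 23.2 and 28.2 CPM at 6 h, at 2.44 to 4.48 CPM at 12 h and at 0.230 to 0.713 CPM at 24 h. Each step was significant in WT, with −2.64 ± 0.10 log2 from 3 to 6 h, −2.93 ± 0.16 from 6 to 12 h and −2.84 ± 0.34 from 12 to 24 h (adjusted p at most 3.32e-07). KO gave −2.77 ± 0.17, −2.63 ± 0.25 and −2.10 ± 0.44 (adjusted p at most 0.000535). At 24 h the change from 0 h was no longer called in either genotype (adjusted p = 0.0767 in WT and 0.576 in KO).

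Mmp12 (ENSMUSG00000049723), the macrophage elastase gene, had many tags already without LPS, at 761, 747, 708 and 784 CPM in WT. It moved little: 0.47 ± 0.17 log2 at 3 h in WT (adjusted p = 0.0271) and 0.31 ± 0.12 in KO (adjusted p = 0.029). These calls were lost without WT replicate 2 (adjusted p = 0.074) or 3 (0.121), and without KO replicate 1 (0.0609), 2 (0.0847) or 4 (0.102). With library totals as the only scaling the values were 0.11 in WT and −0.03 in KO, so no direction of the early change is claimed. At 6 h the WT change was 0.39 ± 0.17 (adjusted p = 0.0556). It passed the threshold without WT replicate 1 (adjusted p = 0.0125) or 4 (0.0239), by DESeq2 (0.0141) and with the replicate number as a block (0.00607). With library totals alone, however, the WT value turned to −0.12. The KO change at 6 h, 0.33 ± 0.11 (adjusted p = 0.0137), was lost without KO replicate 4 (0.114) and turned to −0.22 with library totals alone.

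The late decline of Mmp12 held in both genotypes. At 24 h the change from 0 h was −0.69 ± 0.17 log2 in WT (adjusted p = 0.00167) and −0.67 ± 0.12 in KO (adjusted p = 1.92e-05). WT replicate 1 stood apart at 24 h with 640.3 CPM, where the others had 397, 403 and 417 CPM.

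Mmp9 (ENSMUSG00000017737) encodes a gelatinase that cuts basement membrane collagen and denatured collagen. Its tags were few, with 24 to 62 counts per WT library at 0 h. WT libraries had 3.28, 5.11, 4.88 and 9.69 CPM at 0 h and 5.93, 7.27, 11.2 and 19.0 CPM at 3 h. The 3 h rise was 0.88 ± 0.33 log2 in WT (adjusted p = 0.0292) and 0.68 ± 0.25 in KO (adjusted p = 0.0287), and the ranges overlapped in both. It was lost without WT replicate 3 (adjusted p = 0.138), without KO replicate 1 (0.132) or 3 (0.222), and with library totals alone (0.144 and 0.23). At 6 h the WT change was 0.71 ± 0.34 (adjusted p = 0.0729). It was called without WT replicate 4 (adjusted p = 0.00392), with no filter on low counts (0.0079) and with the replicate number as a block (0.0178). The KO change at 6 h was 0.42 ± 0.26 (adjusted p = 0.158), called with no filter (0.0491).

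Mmp9 then declined in KO, from 23.4, 18.8, 23.5 and 19.3 CPM at 6 h to 6.39, 2.66, 4.46 and 7.91 CPM at 24 h. The change from 0 h to 24 h was −1.52 ± 0.29 log2 in KO (adjusted p = 0.000101). The WT value was −0.75 ± 0.39 (adjusted p = 0.0891), with −1.11 without WT replicate 1 (adjusted p = 0.022) and −0.28 without WT replicate 4 (adjusted p = 0.444). That WT change was called with no filter on low counts (adjusted p = 0.00651), with the replicate number as a block (0.0478) and with library totals alone (0.0146). The difference between these responses was not tested.

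Mmp8 (ENSMUSG00000005800) encodes the collagenase best known from neutrophils. It lay between 172 and 233 CPM in all 16 libraries of 0 and 3 h and fell to 76.9 to 109 CPM at 24 h. The changes at 24 h were −1.17 ± 0.08 log2 in WT (adjusted p = 5.33e-13) and −0.99 ± 0.12 in KO (adjusted p = 6e-08), after −0.44 ± 0.07 and −0.43 ± 0.11 at 12 h. At 3 and 6 h no change passed the test, whereas with library totals alone Mmp8 was lower at 3 h in WT (−0.27, adjusted p = 0.00132) and KO (−0.35, adjusted p = 0.00743).

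Mmp19 (ENSMUSG00000025355) encodes a secreted protease that cuts basement membrane proteins. Its course had a dip and a later rise, from 26.5 ± 3.7 CPM at 0 h in WT to 19.0 ± 4.59 at 3 h and 46.3 ± 7.96 at 12 h (SD, n = 4). The 3 h change was −0.49 ± 0.18 log2 in WT (adjusted p = 0.021) and −0.58 ± 0.15 in KO (adjusted p = 0.00292). The WT dip was lost without WT replicate 1 (adjusted p = 0.0658) or 2 (0.142). From 6 to 12 h Mmp19 rose by 1.13 ± 0.17 in WT (adjusted p = 1.24e-05) and by 1.04 ± 0.16 in KO (adjusted p = 7.06e-06). All 4 libraries of 12 h lay above all 4 of 6 h in each genotype. At 24 h it was 0.49 ± 0.16 above 0 h in WT (adjusted p = 0.0103; 0.0951 without WT replicate 3) and 0.33 ± 0.15 in KO (adjusted p = 0.0504). That KO change was called by DESeq2 (adjusted p = 0.0374), with its size factors in edgeR (0.0297), with no filter (0.0316) and without KO replicate 4 (0.00938), and was 0.03 with library totals alone.

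Timp1 (ENSMUSG00000001131) encodes a secreted inhibitor that also binds the precursor of MMP9. It had 3 to 6 counts per library at 0 h (0.488 to 1.08 CPM). In WT the 3 h libraries spread over 6.62, 11.7, 16.8 and 21.9 CPM, and those of 6 h over 8.99, 17.8, 18.3 and 29.5 CPM. WT replicate 4 was the highest and WT replicate 1 the lowest of the 4 at 3, 6 and 12 h. KO libraries lay closer together, at 9.53 to 13.6 CPM at 3 h and 13.1 to 19.3 CPM at 6 h. The changes at 6 h were 4.76 ± 0.51 log2 in WT (adjusted p = 1.13e-07) and 4.35 ± 0.26 in KO (adjusted p = 2.53e-13). By 24 h Timp1 had fallen to 7.00 ± 0.70 CPM in WT and 7.22 ± 1.12 CPM in KO. The changes from 12 h were −1.11 ± 0.37 and −1.07 ± 0.19 log2 (adjusted p = 0.0227 and 0.000111). The WT fall was lost without WT replicate 2 (adjusted p = 0.15) or 3 (0.105).

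Timp2 (ENSMUSG00000017466) encodes an inhibitor that also takes part in the activation of MMP2 by MMP14. It lay at 381 to 504 CPM in WT and 391 to 527 CPM in KO at 0 h. Its level fell late, to 165, 175, 187 and 312 CPM in WT at 24 h, where replicate 4 stood apart from the others. Changes at 12 h were −0.77 ± 0.21 log2 in WT (adjusted p = 0.00364) and −0.75 ± 0.18 in KO (adjusted p = 0.00104). At 24 h they were −1.03 ± 0.21 and −1.06 ± 0.18 (adjusted p = 0.000341 and 3.07e-05). WT replicate 4 and KO replicate 3, the replicates taken as male, each held the highest Timp2 level of their group at all 5 times. In KO at 24 h the margin was narrow (233.1 against 232.1 CPM in KO replicate 1). A part of sex in these levels was not tested. Without WT replicate 4 the 6 h change in WT was called (−0.26, adjusted p = 0.0207), whereas with all 4 it was −0.25 ± 0.21 (adjusted p = 0.301). With all 4 and the replicate number as a block, that change was called (−0.26, adjusted p = 0.00508).

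Timp3 (ENSMUSG00000020044), whose matrix-bound product inhibits ADAM17 and aggrecanases, had group means of 0.124 to 0.758 CPM. Libraries held 0 to 7 counts, and 11 of the 40 held none. No change was detectable at this depth.

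The steps between successive times showed when the set turned. From 3 to 6 h, 2 members rose and 1 fell in each genotype, where 20.4% of genes rose and 21.9% fell in WT (42.3% together) and 19.0% and 21.6% in KO (40.6%). From 6 to 12 h the counts were 2 and 3 in WT (22.3% and 23.4%, 45.6% together) and 2 and 6 in KO (22.7% and 22.0%, 44.8% together). Without KO replicate 1 or 3 the KO total of 8 became 5. From 12 to 24 h, 0 rose and 6 fell in WT (19.1% and 20.5%, 39.6% together) and 0 rose and 7 fell in KO (18.1% and 18.8%, 36.9% together). Mmp8, Mmp12, Mmp13, Mmp14, Timp1 and Adamts4 fell in both. Mmp9 changed by −1.17 log2 in KO (adjusted p = 0.00478; 0.0608 without KO replicate 3) and by −0.76 in WT (adjusted p = 0.151; 0.0266 with no filter on low counts), and the difference between the genotypes was not tested. In this last step all 9 edgeR values were below 0 in both genotypes, so 0 members rose at an unadjusted p under 0.05 as well, and DESeq2 called 0 higher.

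Set against each other, summed protease tags rose relative to summed inhibitor tags up to 12 h in the group means, which were not tested. A 3′ tag counts a transcript once whatever its length, but tag yield can differ between genes, so these ratios of summed CPM are compared between groups only. The 6 Mmp genes summed to 1042 ± 38.8 CPM at 0 h in WT and 3334 ± 150.2 CPM at 6 h, and in KO to 1514 ± 199.96 and 4317 ± 253 CPM (SD, n = 4). The 3 Timp genes summed to 429 ± 53.6 CPM at 0 h and 217 ± 69.2 CPM at 24 h in WT. Timp2 gave nearly all of this sum in WT, 428 CPM at 0 h and 251 of 267 CPM at 12 h. Timp1 went the other way over these 12 h, from 0.658 to 15.2 CPM. The mean ratio of the sums rose from 2.45 ± 0.22 at 0 h to 11.4 ± 3.23 at 12 h in WT, and from 3.49 ± 0.44 to 13.8 ± 4.30 in KO. The libraries of 6 and 12 h overlapped, with 6.85 to 11.2 and 6.70 to 13.9 in WT. In KO they had 9.06 to 15.4 and 8.75 to 19.2. Between these times the Mmp sum itself fell, to 2869 CPM in WT and 3579 CPM in KO. At 0 h the 4 KO ratios (3.11 to 4.01) lay above the 4 WT ratios (2.18 to 2.68), and at later times the ranges overlapped. Mmp12, whose genotype difference the listing of the set had used, made up 72.0% of the Mmp sum at 0 h in WT and 78.4% in KO. Nothing about genotype is therefore read from these ratios.

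The make-up of the protease tags turned over as well. Mmp12 gave 72.0% of the Mmp tags at 0 h in WT and 26.6% at 12 h, while Mmp14 went from 1.88% to 35.1%. Mmp13 held 39.2% at 3 h and 15.1% at 24 h. In KO the Mmp12 share was 78.4% at 0 h and 30.4% at 12 h.

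**Figure D3:**
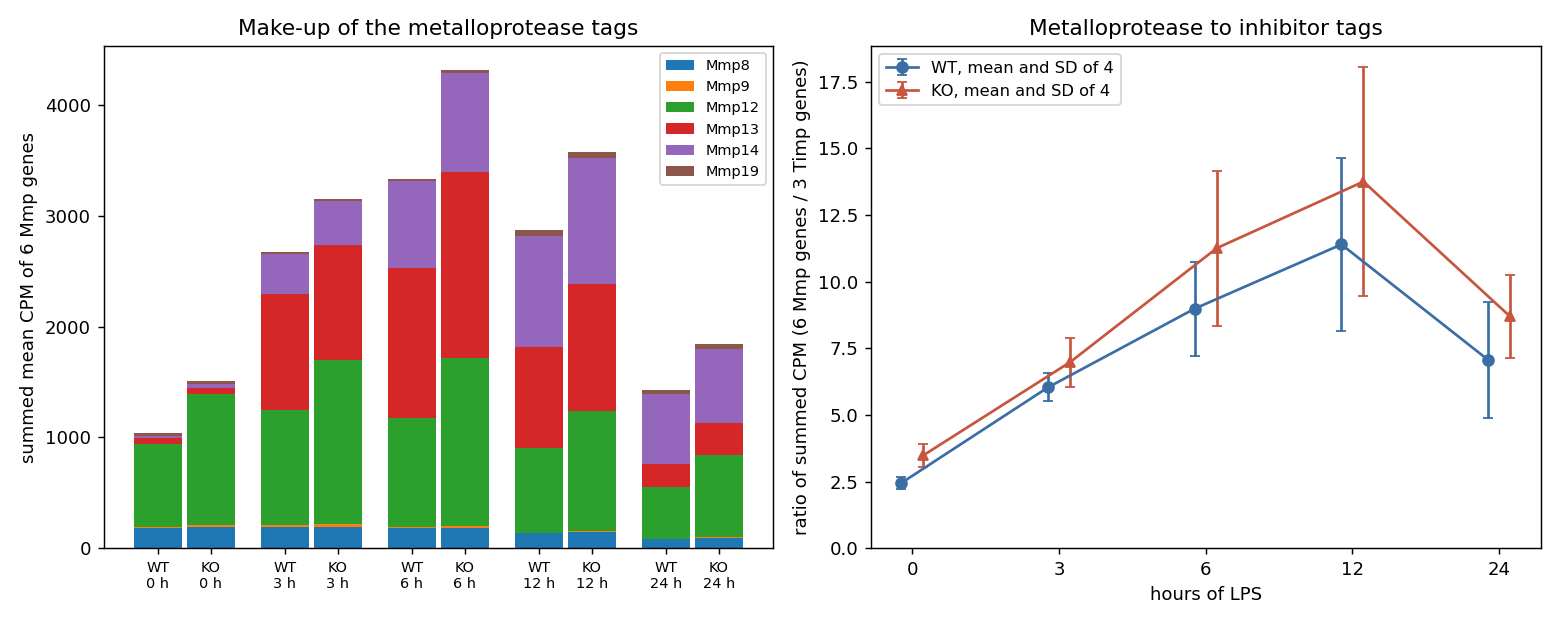
Left, mean CPM of 6 Mmp genes stacked by gene (vertical axis) for each genotype and time (horizontal axis); right, ratio of the summed CPM of 6 Mmp genes to that of 3 Timp genes against hours of LPS, mean and SD of 4 libraries. Mmp12 makes up most of the stack at 0 h, and the Mmp13 and Mmp14 parts grow after LPS. The mean ratio is highest at 12 h, at 11.4 in WT and 13.8 in KO.

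Mmp13, Mmp12 and Mmp8 lie in 1 run of 10 metalloprotease genes on chromosome 9 (order from RefSeq GRCm38.p6), and their levels were unlike those of the genes between them. The order is Mmp13, Mmp12, Mmp1b, Mmp3, Mmp1a, Mmp10, Mmp8, Mmp27, Mmp20 and Mmp7. Mmp1b, Mmp20 and Mmp7 had no count in any library. Mmp3 and Mmp1a had group means of at most 0.0951 CPM. Mmp10, a stromelysin gene, was highest at 3 h with 2.41 CPM in WT and 2.57 CPM in KO and was at 0.136 and 0.188 CPM at 12 h. Mmp27, next to Mmp8, fell from 20.7 ± 3.76 CPM at 0 h to 2.55 ± 0.36 at 24 h in WT (−3.03 ± 0.24 log2, adjusted p = 1.81e-11). In KO it fell from 22.2 to 3.36 CPM (−2.71 ± 0.23, adjusted p = 2.86e-10). Mmp8 fell by less over the same time, with −1.17 ± 0.08 in WT and −0.99 ± 0.12 in KO. At 3 h Mmp13, the first of the run, rose by 4.18 log2 in WT, while Mmp8 and Mmp27 further along had values of 0.09 and −0.27 that did not pass the test.

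**Figure D4:**
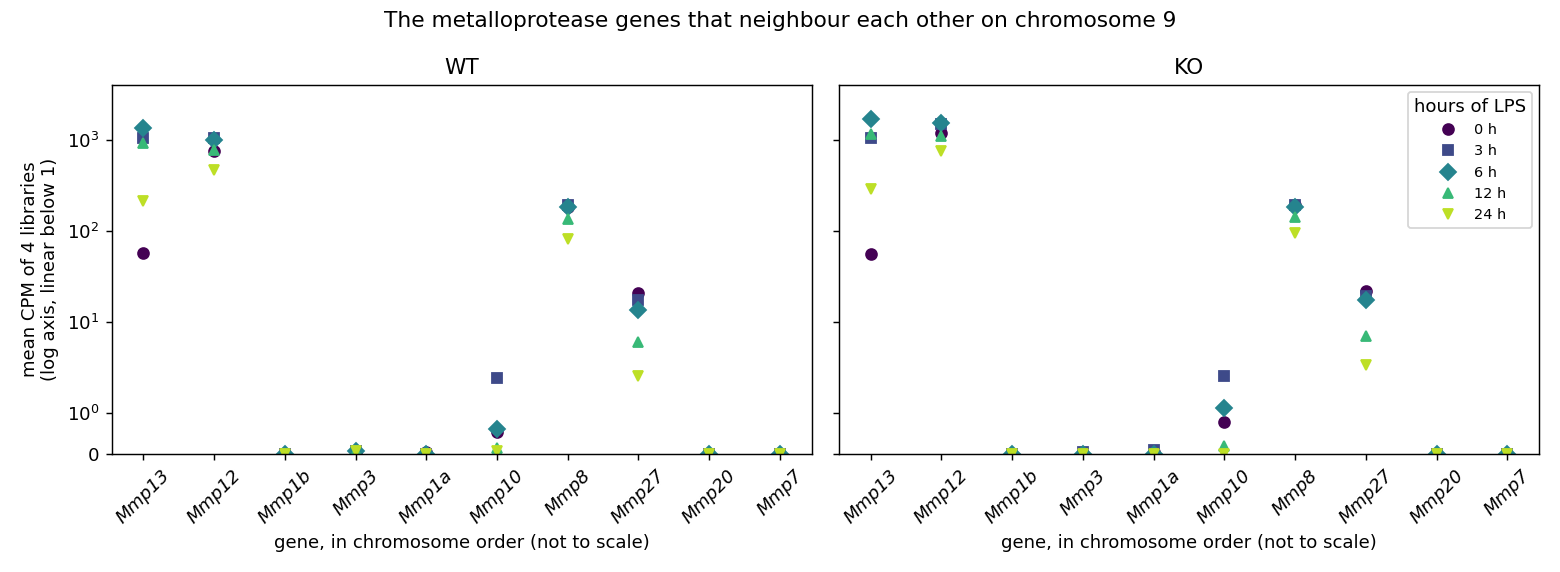
Mean CPM of 4 libraries (vertical axis, logarithmic above 1 and linear below) of 10 metalloprotease genes in their order on chromosome 9 (horizontal axis, not to scale), WT at left and KO at right, with a symbol for each time. Levels above 1 CPM at all 5 times are seen for Mmp13, Mmp12, Mmp8 and Mmp27.

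Between genotypes, the mean levels of Mmp9 and Mmp12, whose difference the listing of the set had used, lay higher in KO at all 5 times, as did those of Mmp14 and Mmp19 by smaller differences. At 0 h Mmp9 was at 17.1, 10.2, 14.0 and 22.2 CPM in KO, all above the WT values of 3.28 to 9.69 CPM. Its KO minus WT difference was 1.45 ± 0.32 log2 (SE) at 0 h, 1.28 ± 0.40 at 3 h, 1.17 ± 0.16 at 6 h, 1.09 ± 0.22 at 12 h and 0.67 ± 0.34 at 24 h. The libraries did not overlap at 0, 6 and 12 h. They overlapped at 3 h, where KO replicate 2 had 12.4 CPM and WT replicate 4 had 19.0 CPM; the difference was 1.48 without the former and 1.67 without the latter.

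For Mmp12 the difference was smaller in fold. KO libraries had 1348, 936, 1330.4 and 1133 CPM at 0 h, against 708 to 784 CPM in WT. Relative to WT, the KO level of Mmp12 differed by 0.65 ± 0.10, 0.51 ± 0.09, 0.60 ± 0.11, 0.49 ± 0.18 and 0.68 ± 0.13 log2 at 0, 3, 6, 12 and 24 h. Groups did not overlap at 0, 3, 6 and 24 h. At 12 h WT replicate 1 reached 1070.5 CPM, within the KO range of 906 to 1303 CPM, and without that library the difference was 0.70.

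**Figure D5:**
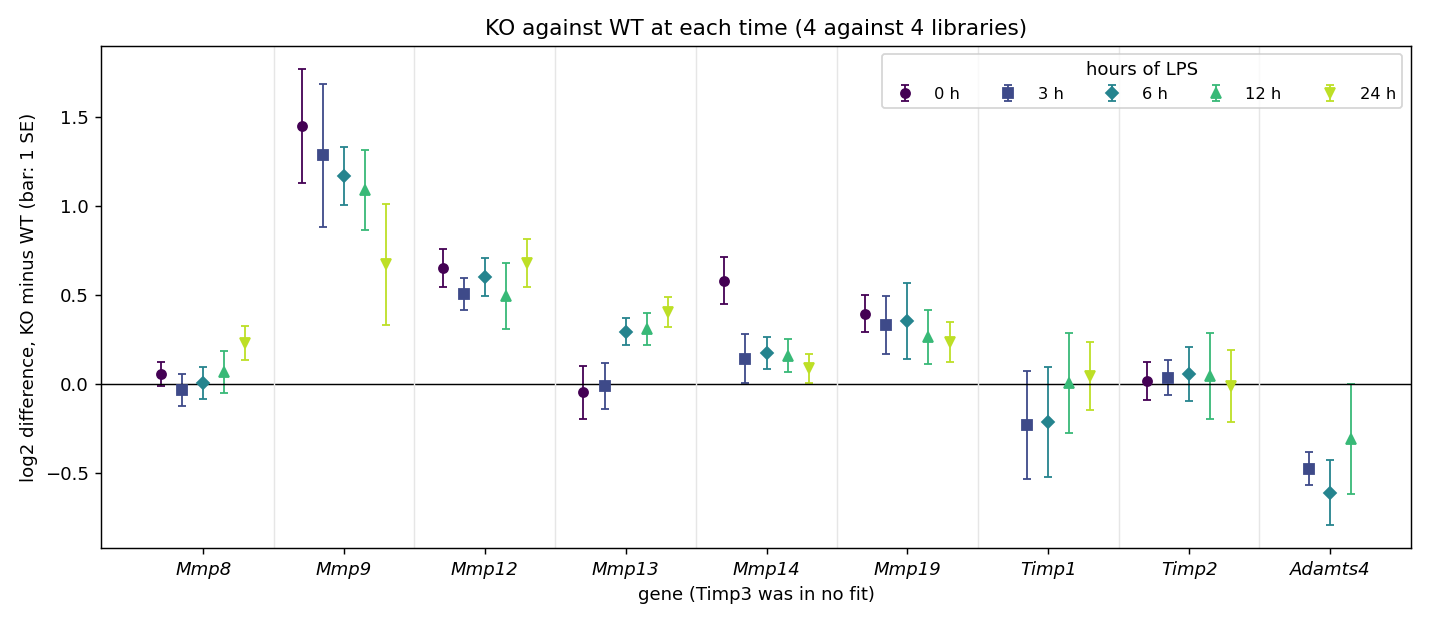
KO minus WT log2 difference (vertical axis, bars are 1 SE, 4 against 4 libraries) for each member in the fit of a time (horizontal axis), with a symbol for each of the 5 times. Mmp9 and Mmp12 lie above 0 at all times, Timp1 and Timp2 stay within 0.25 of 0, and Adamts4 lies below 0 at 3, 6 and 12 h.

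Other members showed smaller or passing differences. Mmp14 was higher in KO at 0 h, with 28.9, 34.9, 31.9 and 21.7 CPM against 18.3 to 20.8 CPM (0.58 ± 0.13 log2), and differed by 0.09 to 0.17 at the later times. Mmp13 showed the reverse order in time, with −0.05 ± 0.15 at 0 h and −0.01 ± 0.13 at 3 h, then 0.29 ± 0.08, 0.31 ± 0.09 and 0.41 ± 0.08 at 6, 12 and 24 h without overlap of the libraries. Mmp19 lay 0.24 to 0.40 log2 higher in KO at the 5 times, without overlap at 0 h only. Adamts4 was lower in KO at 3 h, with 129, 121, 133 and 97.2 CPM against 157 to 186 CPM (−0.47 ± 0.09), and at 6 h (−0.61 ± 0.18), both without overlap. Mmp8 differed by −0.03 to 0.23, Timp1 by −0.23 to 0.04 and Timp2 by −0.01 to 0.06, always with overlap. The sign of these small values was not stable: without WT replicate 4, Timp1 differed by 0.03 at 3 h and 0.12 at 6 h, and Timp2 by 0.24 at 24 h.

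Counted by libraries that do not overlap, 4 of the 7 members in the fit lay wholly higher in KO at 0 h (Mmp9, Mmp12, Mmp14 and Mmp19), where 2.63% of all genes did. At 3 h it was 1 of 9 (Mmp12; 3.26% of genes), at 6 h 3 of 9 (Mmp9, Mmp12 and Mmp13; 5.07%), at 12 h 2 of 9 (Mmp9 and Mmp13; 3.28%) and at 24 h 2 of 8 (Mmp12 and Mmp13; 2.43%). Without WT replicate 4 or KO replicate 2 the 3 h count was 2, and without WT replicate 1 the 12 h count was 4. Adamts4 alone lay wholly lower in KO, at 3 h (2.96% of genes) and 6 h (2.75%). At 0, 12 and 24 h 0 members did (2.38%, 1.74% and 1.98% of genes). As the set was listed from this contrast, nothing is read from these counts.

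Across all 10 groups the order of Mmp12 levels ran from KO at 6 h (1511 ± 109.7 CPM) and KO at 3 h (1479.6 ± 181) down to WT at 24 h (464 ± 117). KO at 24 h (745 ± 26.6) stood next to WT at 0 h (750.1 ± 31.7). Only that KO 24 h level and the WT 24 h level were neighbours in the order whose means differed beyond the SD of each. For Mmp9 the first 4 places were taken by KO at 3, 6, 0 and 12 h (24.9 to 12.4 CPM), and WT at 6 h (9.35) against WT at 12 h (5.87) was the 1 pair of neighbours that stood apart by that measure.

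Markers of other cells that use these proteases were also compared between the genotypes, and their part in the results was not tested. The 9 osteoclast markers, listed because osteoclasts make Mmp9 and arise from the same precursors, ranged in their 0 h sum from 304 to 390.1 CPM over the KO libraries and from 242 to 306 CPM over the WT libraries. At 6 h the sums were 202 to 279 CPM and 151 to 206 CPM. The KO and WT ranges overlapped at 0, 3 and 6 h. They narrowly did not at 12 h (127 to 152 against 92.6 to 126 CPM) and 24 h (132 to 163 against 93.2 to 131 CPM). The KO minus WT log2 difference was above 0 for 5 of 5 tested markers at 0 h. It was above 0 for 6 of 6 at 3 h and again at 6 h, 5 of 6 at 12 h and 4 of 5 at 24 h. The median difference ran from 0.12 log2 at 0 h to 0.36 at 3 h (0.002 and 0.006 over all genes). Oscar was at 0 in all WT libraries of 0 h and all libraries of 6 h. Calcr was at 0 in all KO libraries of 0 h and all libraries of 3 and 6 h. In WT neither was at 0 in all libraries of 12 h, but both were at 24 h. Ctsk, a bone-resorbing cathepsin gene, was 0.96 ± 0.19 log2 higher in KO at 6 h (16.3 against 8.20 CPM, adjusted p = 0.0181). The call was lost without KO replicate 1 (adjusted p = 0.108) or 2 (0.0593) and without WT replicate 2 (0.0846) or 3 (0.0582). It was the 1 called gene of this list in the 5 genotype comparisons.

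The 13 neutrophil markers, listed because neutrophils carry Mmp8 and Mmp9, went the other way. At 3 h their sum was 32.5 to 46.6 CPM among KO libraries, against 61.3 to 76.9 CPM for WT. S100a8 and S100a9 carried most of the sum and were lower in KO at 3 h (−0.76 ± 0.11 and −1.08 ± 0.17, both adjusted p = 0.00526), and S100a9 again at 24 h (−1.31 ± 0.22, adjusted p = 0.0387). The 24 h call held without KO replicate 4 (adjusted p = 0.0114) and was lost without any other single replicate (adjusted p from 0.0807 to 0.145), whereas both 3 h calls held under every alternative run. At 6 h 1 of 4 tested was lower, Wfdc21 (−1.23 ± 0.28, adjusted p = 0.0433), named after its value was seen. It was lost when any replicate other than WT replicate 3 was left out (adjusted p from 0.0603 to 0.153). Ly6g, the defining surface marker, was at 0 in all WT libraries and in KO at 3, 6 and 12 h, and Elane was at or below 0.298 CPM in every group.

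Among other metalloprotease and inhibitor genes 2 of 18 were high enough to test after LPS, and they moved apart. Mmp25, which encodes a membrane-anchored protease of leukocytes, rose from 0.661 ± 0.11 CPM to 97.5 ± 6.68 CPM at 6 h in WT (7.16 ± 0.17 log2, adjusted p = 2.06e-22) and from 0.573 to 99.8 CPM in KO (7.40 ± 0.23, adjusted p = 3.78e-19). It was called higher at all 4 times in both genotypes, and Mmp27 fell as given above. Of the other 30 ADAM and ADAMTS genes, 11 were tested in WT; at 6 h 2 were higher and 5 lower, with a median change of −0.04 log2 against −0.09 over all genes. Adam17, the sheddase of TNF, rose to 704 ± 14.4 CPM at 6 h from 299.6 ± 8.34 CPM (1.23 ± 0.08, adjusted p = 1.09e-13). Adam10, a related sheddase, fell by 0.68 ± 0.09 by 24 h (adjusted p = 1.16e-07).

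The list of genes for activation, docking and uptake of metalloproteases had 12 of 19 members tested in WT, of which 9 rose and 2 fell at 3 h, with a median change of 1.36 log2 against −0.05 over all genes. In KO it was 8 and 2 of 11. Plat, a plasminogen activator gene, rose by 7.65 ± 0.32 in WT at 3 h (0.200 to 43.8 CPM, adjusted p = 4.23e-17). Plau, the urokinase gene, fell instead, by 2.33 ± 0.17 at 6 h in WT (219.5 to 43.3 CPM) and by 2.30 ± 0.18 in KO. Lcn2, whose product binds MMP9 and shields it from breakdown, rose later, to 70.2 ± 6.67 CPM at 12 h in WT and 78.5 ± 19.3 CPM in KO. At 24 h 5 of 12 were higher and 6 lower in WT.

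Substrates were few in these cells: 8 of 21 matrix and matricellular genes were tested in WT and 9 in KO. Vcan, the proteoglycan that ADAMTS4 cuts, rose from 2.59 ± 0.64 CPM at 0 h to 83.8 ± 15.7 at 3 h and 317 ± 46.7 at 6 h in WT (6.94 ± 0.20 log2 at 6 h, adjusted p = 6.1e-18). It was lower in KO than in WT at 3 h, 53.0 ± 6.87 CPM (−0.66 ± 0.13, adjusted p = 0.0362). That call was lost without KO replicate 2 (adjusted p = 0.079), 3 (0.11) or 4 (0.0837) and without WT replicate 2 (0.15) or 3 (0.108). Tgfbi and Thbs1 rose at 12 h in WT (2.05 ± 0.11 and 1.85 ± 0.16) and in KO (1.8 ± 0.11 and 2.20 ± 0.23). Fn1 fell by 2.08 ± 0.25 at 24 h in WT and by 2.11 ± 0.37 in KO.

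Between genotypes few of these other pathway genes passed the test. Of the 88 genes on the 4 lists, 27 to 32 were tested at each time, and Vcan at 3 h was the 1 call of edgeR. At 0, 6, 12 and 24 h edgeR called 0 of them, with 2, 9, 6 and 4 at an unadjusted p under 0.05, and DESeq2 called 0, 3, 1 and 0. DESeq2 called 2 at 3 h. Over all genes edgeR called 0.689% at 3 h (0.362% higher and 0.326% lower in KO), 1.01% at 6 h (0.837% and 0.171%), 0.0464% at 12 h (0.0371% and 0.00927%) and 0.0809% at 24 h (0.0539% and 0.027%), with 0 at 0 h, where the unadjusted p was under 0.05 for 900 genes and 25 were called by DESeq2.

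By pattern over the 10 group means of log2(CPM + 1), ranked among the 9104 genes whose mean reached 5 CPM, Mmp9 and Mmp12 were each among the 3 genes most like the other (Pearson r = 0.970). These correlations describe 10 means that share libraries and scaling. The means span both genotypes, and Mmp9 and Mmp12 had been listed for being higher in KO. Their likeness is thus partly built in, and nothing is read from it. The others nearest to Mmp9 were Cyp2j6 (0.957) and Papola (0.955), and those nearest to Mmp12 were Ccl6 (0.971) and Itgax (0.964). Mmp13 was closest to Ptprj (0.996), Mapkapk2 and N4bp1, and Mmp14 to Sod2 (0.998), Gas7 and Cybb. For Mmp8 the first was Mrc1 (0.996), for Mmp19 Mocos (0.973), for Timp1 Cd40 (0.996) and for Timp2 Slc9a9 (0.995). Adamts4 was closest to Aebp2 (0.994), Tnfsf9 and Stat5a, of which 1 remained with an offset of 0.1.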

How the data were processed

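RNA of bone-marrow-derived macrophages was measured in 40 libraries, 4 for each of 2 genotypes at 5 times. The authors deposited expected counts per gene from RSEM 1.3.3, all of them whole numbers, and the submitters' processing notes also name STAR 2.7.10a, UMI-tools 1.1.2, cutadapt 3.7, FastQC 0.11.9 and the GRCm39 build. Not given in the sources used here are the settings of these tools and how molecular identifiers were treated.

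Groups were taken from the labels. CPM was computed over library totals (3615155 to 6829303) scaled by TMM factors. LPS responses were fitted over the 20 libraries of a genotype, and genotype differences over the 8 libraries of a time, with edgeR 4.0.16 (R 4.3.3; robust quasi-likelihood test, filterByExpr with a minimum count of 10, Benjamini-Hochberg adjustment over all genes tested, threshold 0.05). Standard errors are the absolute log2 change divided by the root of the F statistic. Tables and figures were made with Python 3.11.15, pandas 2.3.3, numpy 2.4.6, scipy 1.17.1 and matplotlib 3.10.9. p-values rest on the spread between biological replicates within groups, estimated over all libraries of a fit and moderated across genes. Intervals on counts cover counting error only. On simulated counts the WT 3 h step, on 12151 genes, recovered 49.2%, 80.3% and 97% of genes changed by 0.5, 1 and 2 log2. Those were 65, 61 and 66 genes, far fewer than the 6640 called in the data. The shares therefore do not give the power of the real comparison.

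Alternatives were DESeq2 1.42.0, its size factors in edgeR, no filter, 1 fit of all 40 libraries, the replicate number as a block, each replicate left out and females only. Library totals as the only scaling, and the counts of groups that do not overlap under each scaling and left-out replicate, were added after seeing the data. The members and lists were chosen with earlier results of these data known. The text names all 10 members. Of each other list it names up to 4 called genes per comparison with the largest change among those whose mean reached 5 CPM, and for likeness the 3 nearest genes to a member. A gene that this rule would name is not reported here.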

Additional observations from a re-analysis of the deposited data

Results flagged for a closer look

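Of 100 groups of 4 libraries (10 genes in 10 groups), 10 held a library whose gap to the nearest of the others took up more of the group's range than Dixon's 95% critical value for 4 samples. Chance gives about 1 in 20 for independent, normally distributed values. The groups share the same 40 libraries and those of Timp3 rest on few counts, so no excess is read from the 10. No explanation was tested.

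KO replicate 2 gave 3 of the 10. At 3 h its Mmp8 level was 233 CPM, above the other KO libraries at 174 to 180.3 CPM. Also at 3 h, Mmp9 was 12.4 CPM in KO replicate 2, where the others had 27.5 to 30.6 CPM. Timp1 was 5.55 CPM in KO replicate 2 at 24 h, where the others had 7.70 to 7.91 CPM.

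WT replicate 4 gave 3. Its Mmp9 level at 6 h was 11.7 CPM against 8.41 to 8.77 CPM, its Timp2 level at 24 h was 312 CPM against 165 to 187 CPM, and its Timp3 level at 12 h was 1.74 CPM against 0 to 0.271 CPM.

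WT replicate 1 had 640.3 CPM of Mmp12 at 24 h against 397 to 417 CPM, and 0 CPM of Timp3 at 3 h against 0.495 to 0.535 CPM. WT replicate 2 had 173 CPM of Mmp8 at 3 h against 199.8 to 205 CPM. WT replicate 3 had 855 CPM of Mmp14 at 6 h against 751 to 768 CPM.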

How the results depend on the processing

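KO minus WT differences of Mmp9, Mmp12, Mmp14, Mmp19 and Adamts4 kept their direction under each alternative run. Of 630 values for the members that passed the filter, 42 changed sign, all of Mmp8, Mmp13, Timp1 or Timp2, where the reported difference was 0.23 log2 or less in size. Mmp9 ranged over 1.24 to 1.88 log2 at 0 h and 0.43 to 0.88 at 24 h, and Mmp12 over 0.58 to 0.75 and 0.61 to 0.87. Scaling mattered most for LPS responses: with library totals alone the median of all genes moved from −0.09 to −0.59 log2 in WT at 6 h. In WT, Mmp8 and Timp2 at 3 h then turned to −0.27 and −0.35, Mmp12 at 6 and 12 h to −0.12 and −0.39, and Mmp9 at 12 h to −0.39. In KO, Mmp12 turned to −0.027 at 3 h, −0.22 at 6 h and −0.19 from 3 to 6 h, Timp2 to −0.32 at 3 h, Mmp9 to −0.13 at 6 h, Mmp19 to −0.0064 from 3 to 6 h, and Timp1 to 0.073 from 6 to 12 h. The cause of other changes was not tested.

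Changes that were not called and lay near 0 turned sign elsewhere. With DESeq2 size factors Mmp8 was 0.048 in WT at 6 h and 0.035 and 0.0096 in KO at 3 and 6 h, and DESeq2 gave 0.051, 0.037 and 0.011. Without the filter, Timp2 was −0.014 at 3 h, Mmp9 −0.020 and Mmp12 −0.0036 at 12 h in WT, and Mmp8 0.0092 in KO at 3 h. With females only, Timp2 was −0.0092 at 3 h, Mmp8 0.018 at 6 h, and Mmp9 and Mmp12 0.095 and 0.0083 from 3 to 6 h in WT. In KO with females only, Mmp8 was 0.015 at 3 h, Mmp12 −0.015 from 3 to 6 h and Timp1 0.12 from 6 to 12 h. Mmp8 in KO at 3 h was 0.00018 in 1 fit of all 40 libraries. With a replicate left out, WT values spanned −0.0092 to 0.067 for Timp2 at 3 h, −0.046 to 0.018 for Mmp8 at 6 h, −0.34 to 0.26 and −0.18 to 0.16 for Mmp9 and Mmp12 at 12 h, and −0.34 to 0.095 and −0.12 to 0.0083 for them from 3 to 6 h. KO values spanned −0.089 to 0.032 for Mmp8 and −0.019 to 0.074 for Timp2 at 3 h, −0.14 to 0.95 for Adamts4 at 24 h, −0.028 to 0.19 for Mmp12 from 3 to 6 h and −0.24 to 0.12 for Timp1 from 6 to 12 h.

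Members called in WT at 6 h numbered 4, but 7 with library totals, 8 with females only and 4 to 8 with a replicate left out. From 6 to 12 h the WT count of 5 was 5 to 6 with a replicate left out. In KO the count from 3 to 6 h was 3, and 5 with library totals. From 6 to 12 h it was 8, against 5 with library totals or females only and 5 to 8 with a replicate left out. Between genotypes, other listed genes called at 0, 3, 6 and 12 h (0, 1, 0 and 0) became 1, 6, 4 and 2 without the filter, and 2, 3 and 1 at 3, 6 and 12 h by DESeq2. At 3 h 0 were called with females only or 1 fit of all 40 libraries, and at 12 h that fit called 1. A replicate left out gave 0 to 1 at 3, 6 and 12 h.

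All genes called between genotypes at 0, 3, 6, 12 and 24 h numbered 0, 76, 106, 5 and 9. edgeR at an unadjusted p under 0.05 gave 900 at 0 h. DESeq2 called 25, 135, 205, 64 and 56, and no filter 177, 359, 344, 158 and 163. The single fit of all 40 libraries called 9, 35, 125 and 32 at 0, 3, 12 and 24 h. Females only gave 2 and 1 at 12 and 24 h, and library totals 2 at 12 h. With a replicate left out the counts spanned 0 to 18, 18 to 160, 37 to 148, 0 to 18 and 0 to 20.

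The replicate numbers were not taken as pairs in the main fits, so the main LPS tests ignore any pairing across times. Same-numbered libraries of a genotype at different times had correlations of their deviations of −0.109 to 0.482, with 52 of 80 over 0.1. Among differently numbered libraries of a genotype 13 of 240 were over 0.1. As a hint from the data, 18 of 20 KO and 19 of 20 WT libraries correlated best with their own number. With the replicate block, 8 members were called in WT at 6 h and 8 from 6 to 12 h, and Mmp12 at 12 h was −0.018. Between genotypes the block gave 0 other listed genes at 3 h, and 5, 26, 0 and 0 genes in all at 0, 3, 12 and 24 h. Timp3 (0 to 7 counts a library) and Adamts4 and Timp1 at 0 h are limited by depth.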
